A study of Mus musculus with 2 samples.

Results

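The 40 mouse cell cycle genes described here were found by symbol in the gene tables of both libraries, where they are 40 of 31053 listed genes. They fall into 8 roles. Mcm2 to Mcm7 form the replicative helicase. Pcna, Pclaf, Rrm1, Rrm2 and Tyms are the DNA clamp, its partner and the enzymes of nucleotide supply, Ccne1 and Ccne2 are the E cyclins, and Hist1h2ap, Hist1h2ae and Hist1h1b are replication-dependent histones. Ccna2, Ccnb1, Ccnb2, Cdk1, Cdc20, Plk1, Aurka and Ube2c drive entry into mitosis and exit from it. Birc5, Cdca8, Aurkb, Cenpa, Cenpe, Cenpf, Bub1 and Bub1b act at the centromere and in the spindle checkpoint, and Tubb5, Stmn1, Kif11, Kif20a, Nusap1 and Tpx2 act on microtubules and the spindle. Mki67 coats mitotic chromosomes, and Top2a untangles DNA strands before they separate.

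The study profiled cells of the colonic lamina propria, the connective tissue under the gut epithelium, by droplet single-cell RNA sequencing. One library is labelled wild type. The other is labelled deficient for lncly6c, the long non-coding RNA gene 1700016P04Rik, with the whole gene deleted by CRISPR-Cas9 on the C57BL/6J background. The mice were male C57BL/6 animals of 6 to 8 weeks kept under specific-pathogen-free conditions, and how many animals gave each library is not stated. The names of the deposited files give the genotypes the other way round. Groups follow the labels here, and going by the file names would turn every direction between libraries. With 1 library per genotype, genotype, animal and library cannot be told apart. No test between the libraries was made, and all intervals are 95% intervals for counting error only.

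A dividing cell first assembles helicases on its DNA, then copies the DNA under E and A cyclins while histones are made, and then enters mitosis under B cyclins and Cdk1. E2F factors switch on many replication genes late in G1, and mitotic genes follow in a later wave. In resting cells and early G1 the DREAM complex holds off genes of both waves. In the gut wall, conventional dendritic cells (cDC) take up antigen, cDC1 presenting it mainly to CD8 T cells and cDC2 mainly to CD4 T cells, and a portion of them divides in the tissue. Neutrophils and eosinophils have left the cell cycle.

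The wild-type-labelled library held 3020 barcodes with 23384895 UMIs (unique molecular identifiers, each 1 transcript captured at its 3′ end), of which 2606 were kept, with a median of 6205 UMIs. The deficient-labelled library held 6133 barcodes with 54773076 UMIs, of which 5888 were kept, with a median of 7847.5 UMIs. The limit of 20% mitochondrial UMIs was passed by 13.5% and 3.78% of barcodes, in this order. No UMI of lncly6c was found in either library, which allows up to 0.115% and 0.0510% of kept cells with a UMI, so the gene gives no check on the labels. The libraries shared 7 barcodes. Cells were sorted into classes by fixed markers, and a class is called "-like" because no deposited annotation was used.

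To compare classes at equal depth, each of the 7201 cells with at least 2000 UMIs was thinned at random to 2000 UMIs. A cell was said to hold many members when at least 5 of 38 genes had a UMI. Tubb5 and Stmn1 were not counted, because resting cells also hold them. Such cells were 105 of 1986 in the wild-type-labelled library (5.29%, 4.34 to 6.36, Clopper-Pearson) and 262 of 5215 in the deficient-labelled one (5.02%, 4.45 to 5.65). The intervals overlap. In cells with many members the median number was 8 and 7 of the 38 genes, whereas 39.0% and 39.1% of all thinned cells held none. The threshold divides a continuous range, with 37 and 94 cells at 4 members, just outside, and 21 and 69 at 5, just inside.

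Cells with many members were concentrated in the conventional dendritic cells. In cDC1-like cells they were 40 of 141 (28.4%, 21.1 to 36.6) in the wild-type-labelled library and 105 of 513 (20.5%, 17.1 to 24.2) in the deficient-labelled one. In cDC2-like cells they were 34 of 425 (8.00%, 5.60 to 11.0) and 83 of 807 (10.3%, 8.28 to 12.6). Together these 2 classes held 262 of the 367 such cells in the series, or 71.4%. The share was higher in cDC1-like than in cDC2-like cells in both libraries, with intervals apart. Within each class the intervals of the 2 libraries overlap. Without thinning the shares among the same cells were 60.3% and 48.3% in cDC1-like cells, whose median depths were 19803 and 16378 UMIs, and 33.4% and 28.0% in cDC2-like cells, with 14387 and 12158 UMIs.

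Outside the cDC1-like, cDC2-like and unclaimed cells, 38 cells held many members. Macrophage-like cells had 6 of 198 (3.03%, 1.12 to 6.48) and 9 of 643 (1.40%, 0.642 to 2.64). Ly6C-high monocyte-like cells, recent arrivals from blood, had 1 of 317 (0.315%, 0.00799 to 1.74) and 2 of 795 (0.252%, 0.0305 to 0.906). Neutrophil-like cells, which serve as the background for free RNA, had 1 of 245 (0.408%) and 0 of 90, which allows up to 3.33%. The monocyte-like share lies at that background. In the deficient-labelled library the limit of 3.33% also covers the macrophage-like share of 1.40%. The only such neutrophil-like cell held 35371 UMIs, among them 19 of Top2a and 10 of Pclaf beside 164 of the neutrophil marker S100a8, and it was among the highest doublet scores.

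Among lymphocytes, T cell-like cells with many members were 0 of 80 and 3 of 230 (1.30%), B cell-like cells 0 of 84 and 2 of 542 (0.369%), and NK or ILC1-like cells 0 of 39 and 1 of 105 (0.952%). Mature DC-like cells, which carry antigen to lymph nodes, had 0 of 59, which allows up to 5.08%, and 1 of 206 (0.485%). Fibroblast-like cells had 0 of 19 and 0 of 262, the latter allowing up to 1.15%. The small classes of ILC2, ILC3, plasmacytoid DC, plasma, germinal centre B, epithelial, goblet and endothelial cell-like cells together gave the other 12 such cells, at most 2 per class and library. Over both libraries they were small, for example 18 kept endothelial, 19 goblet, 44 ILC2 and 89 plasma cell-like cells. No share is read at these numbers, so how common such cells are in these classes is not known. Cells that no marker list claimed had 19 of 303 (6.27%, 3.82 to 9.62) and 48 of 834 (5.76%, 4.27 to 7.56). Of these 67 cells, 38 scored highest for a conventional dendritic cell list without passing the margin. No barcode with many members was shared between the libraries.

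**Figure D1:**
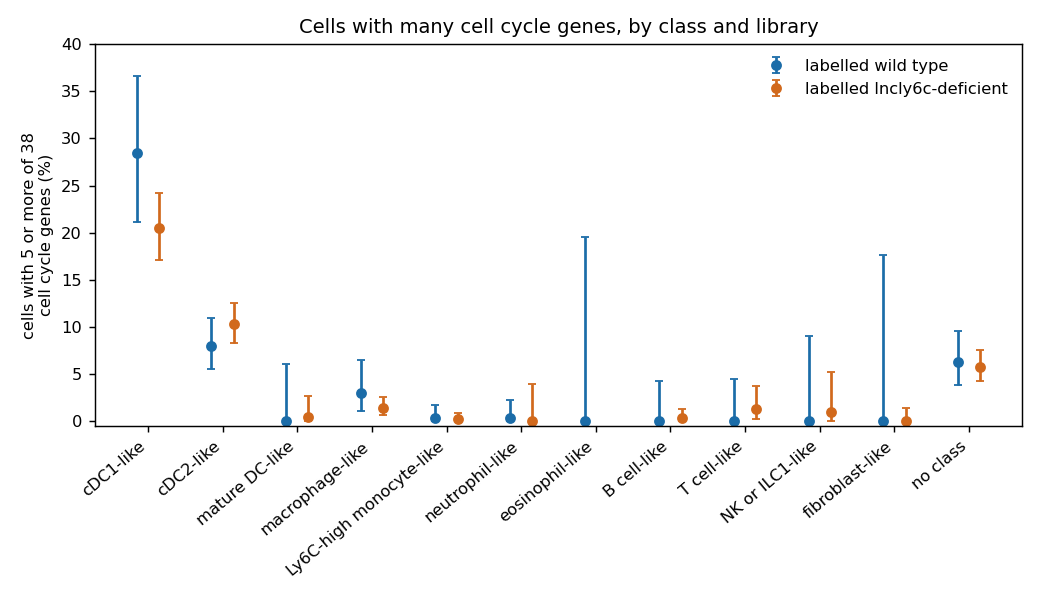
Share of cells holding at least 5 of 38 cell cycle genes after thinning to 2000 UMIs (vertical axis, percent) by marker-gated class (horizontal axis). Points are the 2 libraries and bars are 95% Clopper-Pearson intervals over cells. cDC1-like cells, at 28.4% and 20.5%, stand above cDC2-like cells, at 8.00% and 10.3%, in both libraries.

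The number of genes per cell gives a finer view of the same pattern. In thinned cDC1-like cells the median was 2 of the 38 genes in the wild-type-labelled library and 1 in the deficient-labelled one, and 18.4% and 9.16% of cells held at least 8. In cDC2-like cells 3.29% and 4.21% held at least 8. cDC1-like cells with none were 19.1% and 36.1%, those with 1 to 2 genes 41.1% and 34.5%, those with 3 to 4 genes 11.3% and 8.97%, and those with 5 to 7 genes 9.93% and 11.3%. Among cDC1-like cells the 2 libraries thus lay furthest apart at 0 genes. In cDC2-like cells the share with none was 35.5% and 35.7%, and in neutrophil-like cells it was 61.6% and 61.1%. Mature DC-like cells had 23.7% and 39.3%, and Ly6C-high monocyte-like cells, in the other direction, 50.2% and 43.3%. Over the series, the gene of cells with exactly 1 was Pcna, Mki67 or Cenpa in 72.3%. Over all kept cells Pcna had a log2 ratio of deficient to wild type of -0.53. Its ratio was -1.01 in B cell-like and -0.11 in neutrophil-like cells. The part of Pcna in the gap at 0 genes was not tested.

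**Figure D2:**
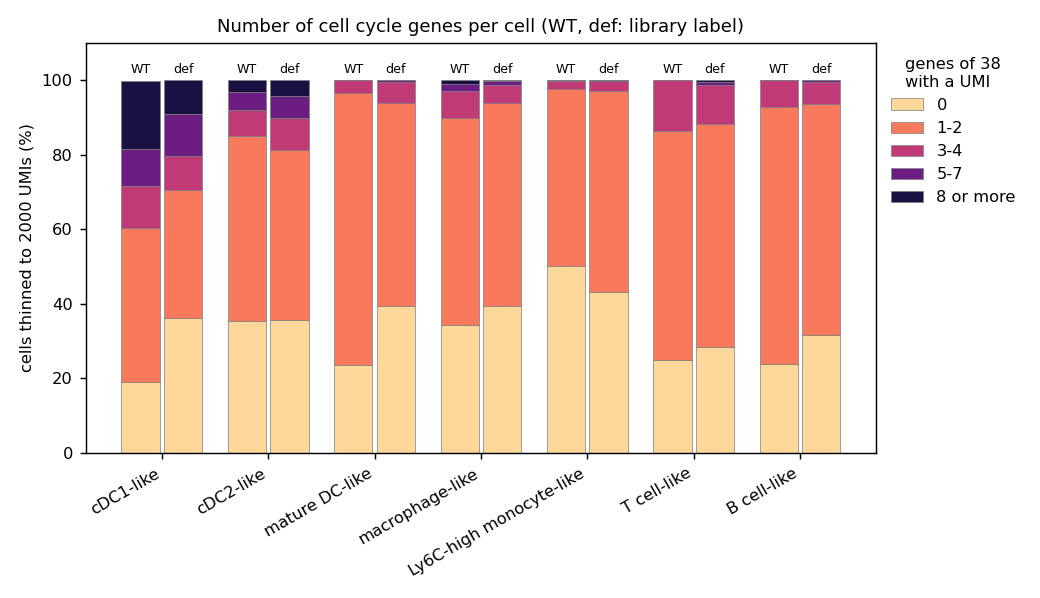
Stacked bars of the percent of thinned cells (vertical axis) by how many of the 38 counted cell cycle genes had a UMI (colours), for 7 classes (horizontal axis), with the wild-type-labelled library to the left in each pair. cDC1-like cells have the largest part at 8 genes or more, 18.4% and 9.16%.

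Levels are given as CPM, the UMIs of a gene scaled to 1000000 UMIs of the class, from all kept cells. Summed over the 40 genes, the level in cDC1-like cells was 3919 CPM in the wild-type-labelled library and 2798 in the deficient-labelled one. cDC2-like cells had 1724 and 1736 CPM, macrophage-like cells 1236 and 819, and mature DC-like cells 904 and 840. Low sums were found in fibroblast-like cells, 457 and 433 CPM, Ly6C-high monocyte-like cells, 504 and 573 CPM, and neutrophil-like cells, 517 and 364 CPM. The only neutrophil-like cell with many members, among the highest doublet scores, gave 38.2% of the summed UMIs of its class in the wild-type-labelled library. Without that cell the sum there was 331 CPM, below the 364 CPM of the deficient-labelled library. Cells with many members gave 81.4% and 67.1% of the summed UMIs of cDC1-like cells and 51.0% and 55.3% of those of cDC2-like cells. Without these cells the sums in cDC1-like cells were 1182 and 1241 CPM and in cDC2-like cells 961 and 908. Fewer cells with many members and fewer of their UMIs per cell both lower such a sum.

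cDC1-like cells had the highest level of the 11 larger classes for 34 of the 40 genes in the wild-type-labelled library and 32 in the deficient-labelled one. The exceptions were Mki67, Cenpa and Mcm6 in both libraries, Pcna, Cdc20 and Ccne2 with the wild-type label, and Mcm4, Pcna, Rrm1, Plk1 and Ccne2 with the deficient label, the last 4 highest in shallow eosinophil-like cells on at most 15 UMIs. Among the helicase subunits, Mcm3 reached 87.6 and 61.7 CPM in cDC1-like cells and 48.6 and 34.7 in cDC2-like cells. Mcm6 was higher in NK or ILC1-like cells, at 83.3 and 74.9 CPM, than in cDC1-like cells, at 56.2 and 51.0. For Pclaf, the partner of the clamp, cDC1-like cells had 253 and 175 CPM against 83.7 and 92.8 in cDC2-like cells. Hist1h2ap had 139 and 124 CPM in cDC1-like cells and 31.1 and 56.9 in cDC2-like cells. Reads of the 3 histone genes, which lie on chromosome 13 in a family of near-identical copies, are uncertain between copies.

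Among the mitotic genes, Ube2c, Birc5, Tubb5 and Top2a were higher in cDC1-like than in cDC2-like cells in both libraries. Ube2c, the ubiquitin-conjugating enzyme that helps to clear cyclins, had 118 and 108 CPM in cDC1-like cells and 51.2 and 48.5 in cDC2-like cells. Birc5, the survivin subunit of the chromosomal passenger complex, had 107 and 69.9 against 35.7 and 43.9 CPM. Tubb5, a beta-tubulin, had 759 and 557 against 295 and 335 CPM, and Top2a had 250 and 162 against 73.3 and 85.4. The E cyclins gave few UMIs. Ccne1 had 6.48 and 6.84 CPM in cDC1-like cells, from 19 and 61 UMIs, and Ccne2 had 5.11 and 5.38.

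**Figure D3:**
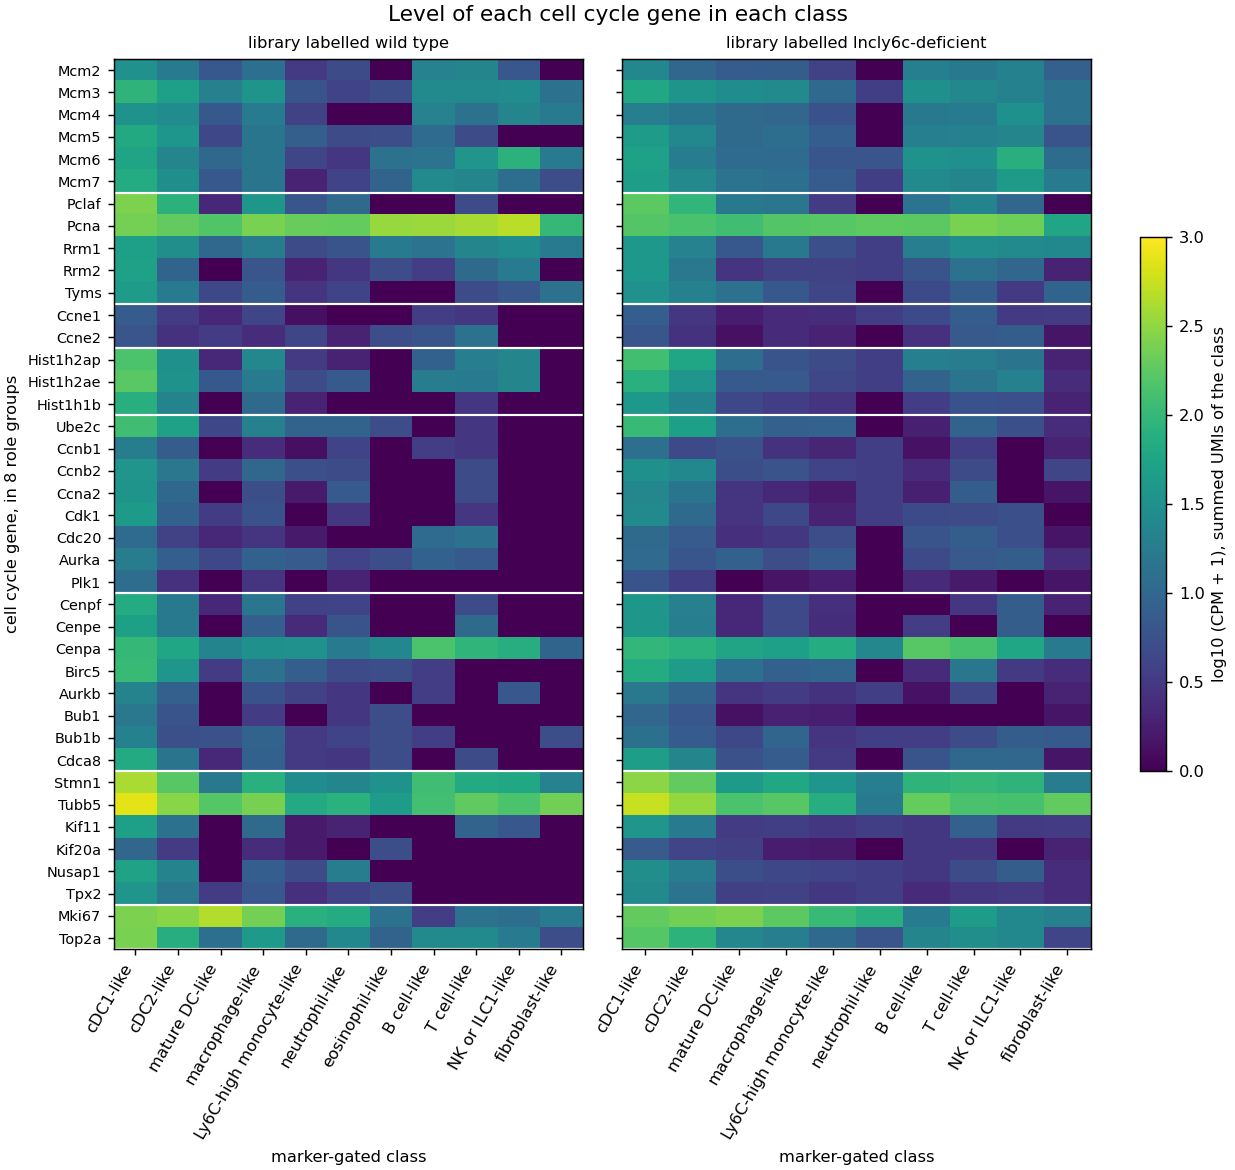
Levels of the 40 genes (rows, grouped by role) in each class (columns) as log10(CPM + 1), coloured on 1 scale, for the wild-type label (left) and the deficient label (right). Mki67 is highest in mature DC-like cells in both panels, and eosinophil-like cells are left out on the right, where none reached 2000 UMIs.

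Mki67, Pcna and Cenpa departed from the rest. In mature DC-like cells Mki67 had 446 CPM (403 to 492) and 257 CPM (238 to 277), and 71.9% and 67.1% of cells held a UMI. In cDC2-like cells it had 293 and 229 CPM and in cDC1-like cells 252 and 190. Top2a in mature DC-like cells had 11.4 and 23.6 CPM, against 250 and 162 in cDC1-like cells. Mki67 was thus highest of all classes where cells with many members were 0 of 59 and 1 of 206. The gene lies at chr7:135689784-135716361 on the minus strand (mm10, GENCODE M21) and overlaps the annotated gene Gm45240 on the opposite strand.

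The same was seen in cells with no other counted gene. Of the thinned mature DC-like cells holding none of the other 37 genes, 14 of 28 (30.6% to 69.4%) and 32 of 113 (28.3%, 20.2 to 37.6) held Mki67. In neutrophil-like cells, at the same 2000 UMIs, this share was 7.93% (4.29 to 13.2) and 12.7% (5.65 to 23.5), and over all cells it was 16.6% and 14.9%. For Top2a the corresponding shares over all cells were 1.65% and 1.69%, and in mature DC-like cells 0 of 14 and 3 of 84. The Mki67 share in mature DC-like cells stood above the neutrophil-like background with intervals apart in the wild-type-labelled library, and with overlapping intervals in the deficient-labelled one.

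Pcna, the sliding clamp of replication and repair, had its highest level in NK or ILC1-like cells for the wild-type label, with 494 CPM (397 to 608) there. With the deficient label these cells had 218 CPM (177 to 265). Among thinned cells with none of the other genes, Pcna was held by 53.5% and 37.5% of T cell-like, 52.4% and 30.4% of B cell-like and 29.1% and 17.9% of neutrophil-like cells. Cenpa, the centromeric histone H3 variant, peaked in B cell-like cells with levels of 139 and 164 CPM, against 97.8 and 96.5 in cDC1-like cells. Among B cell-like cells with none of the other genes, 23.1% and 28.9% held Cenpa, against 0% and 3.51% of neutrophil-like cells.

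Counted over the series, 2603 thinned cells held exactly 1 of the 38 genes. In 1029 of them (39.5%) it was Pcna, in 510 (19.6%) Mki67 and in 344 (13.2%) Cenpa, which together make 72.3%. Mcm3 followed with 82 cells (3.15%), and Top2a was the only gene in 48 (1.84%). The UMIs of most genes lay in cells with many members, by a median over genes of 66.8% and 63.8%. For Ccna2 in the wild-type-labelled library it was 92.7%. For Pcna it was 17.1% and 16.5%, for Mki67 29.5% and 32.0%, and for Cenpa 25.9% and 20.4%. For Top2a, by comparison, it was 78.9% and 67.3%.

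The letters of the promoters were compared between replication and mitotic genes. RefSeq windows of 250 bases before to 50 after the start (GRCm38.p6) were found for 30 of the 40 genes, 31 windows in all, and both strands were searched. The E2F words TTTCGCGC or TTTGGCGC were in 4 of 12 windows of replication genes (33.3%), 1 of 19 of mitotic genes (5.26%) and 0.813% of all 32851 windows. The 4 were among the 6 helicase windows, and the 5 windows of clamp and nucleotide genes had 0. The cell cycle homology word TTTGAA was in 13 of 19 windows of mitotic genes (68.4%), 1 of 12 of replication genes (8.33%) and 17.9% of all. The word CCAAT was in 17 of the 19 mitotic windows (89.5%), 10 of the 12 replication windows (83.3%) and 37.4% of all. A match is a description of letters and shows no binding. A stretch of 100 bases is printed for 2 helicase genes with the E2F word in capitals, and for 4 mitotic genes with CCAAT and TTTGAA, or their reverse complements ATTGG and TTCAAA, in capitals, each 5′ to 3′ on the strand of the gene. They are Mcm3 (chr1:20820263-20820362, minus strand), Mcm7 (chr5:138171834-138171933, minus), Ube2c (chr2:164769823-164769922, plus), Ccnb2 (chr9:70421544-70421643, minus), Cdca8 (chr4:124936882-124936981, minus) and Cenpf (chr1:189688069-189688168, minus). In Cdca8 the 2 words overlap.
Mcm3: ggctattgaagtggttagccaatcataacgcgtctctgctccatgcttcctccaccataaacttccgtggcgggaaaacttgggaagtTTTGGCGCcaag
Mcm7: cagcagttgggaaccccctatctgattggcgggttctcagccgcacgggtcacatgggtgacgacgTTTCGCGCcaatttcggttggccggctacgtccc
Ube2c: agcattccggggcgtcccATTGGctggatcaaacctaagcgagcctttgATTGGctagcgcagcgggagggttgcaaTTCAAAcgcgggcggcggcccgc
Ccnb2: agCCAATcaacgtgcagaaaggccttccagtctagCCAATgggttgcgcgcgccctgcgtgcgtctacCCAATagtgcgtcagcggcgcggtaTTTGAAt
Cdca8: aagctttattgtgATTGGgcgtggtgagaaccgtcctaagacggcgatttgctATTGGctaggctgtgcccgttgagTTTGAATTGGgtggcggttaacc
Cenpf: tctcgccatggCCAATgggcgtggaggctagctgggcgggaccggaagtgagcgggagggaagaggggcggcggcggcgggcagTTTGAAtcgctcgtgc

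Among the 4 mitotic genes whose promoters are printed, the level in cDC1-like cells exceeded that in cDC2-like cells in both libraries: Ccnb2, a B cyclin, had 35.4 and 30.9 against 14.4 and 24.3 CPM, and Cdca8, the borealin subunit of the passenger complex, 67.5 and 46.5 against 13.2 and 22.3. Cenpf, a kinetochore protein, had 68.8 and 38.2 against 15.5 and 19.2 CPM. The 2 helicase genes did so too, with Mcm3 at 87.6 and 61.7 against 48.6 and 34.7 CPM and Mcm7 at 68.8 and 47.1 against 30.6 and 24.7 CPM.

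The dendritic cells with many members were then compared with the other cells of their class, averaging cDC1-like and cDC2-like cells equally within each library. The counted genes chose these cells, so only genes outside the count are read. Stmn1, a tubulin-binding protein, had 885 CPM in cells with many members and 92.2 in the rest of the wild-type-labelled library, a log2 difference of 3.26, and 771 and 110 CPM in the deficient-labelled one, a log2 difference of 2.81. Tubb5 had 1556 against 175 CPM and 1362 against 215. In cDC1-like cells the former were also deeper, with median depths of 27552.5 and 21915 UMIs against 17515 and 15397, and the part of depth in these differences was not tested.

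Of 92 other cell cycle genes measured, 71 were more than 1.5-fold higher in cells with many members in both libraries and 1, Ccnd2, was lower. Over all 10261 measured genes 12.3% were higher and 2.87% were lower. The median log2 difference of the 92 genes was 1.91 and 1.99, against 0.09 and 0.18 for all genes. Licensing and origin firing genes were higher in 9 of 9 cases. Examples are Orc6 of the origin recognition complex, with 46.0 against 15.6 and 43.4 against 12.4 CPM, and Cdt1, which loads the helicase, with 42.6 against 17 and 30.6 against 11.9. All 10 genes of DNA synthesis and maintenance were higher, among them Dut, which removes dUTP, with 172 against 45.7 and 128 against 34.2 CPM, and the ligase Lig1, with 101 against 24.7 and 73.9 against 21.7.

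The 11 checkpoint genes were all higher as well, by smaller amounts. Bub3 of the spindle checkpoint had 85.1 against 43.6 and 81.9 against 44.4 CPM, and Fzr1, the Cdh1 activator of the anaphase-promoting complex, had 35.6 against 14.0 and 28.9 against 16.1. Of 19 genes of mitotic chromosomes and cytokinesis 18 were higher, including the condensin subunit Smc4, with 320 against 49.7 and 268 against 53.8 CPM. The exception was the lamin Lmnb1, with 329 against 359 and 270 against 333 CPM. Among 14 genes of E2F factors and the MuvB core 9 were higher, including the activator E2f2, with 40.8 against 13.4 and 46.0 against 17.5 CPM. Lin54, the DNA-binding MuvB subunit, had 81.3 against 61.5 and 74.3 against 51.3 CPM, below the 1.5-fold limit. Of 10 abundant growth genes 9 were higher, with Ptma, prothymosin alpha, at 5906 against 2619 and 5259 against 2420 CPM and the histone variant H2afz at 3573 against 1943 and 3903 against 2022.

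Among the regulators of G1, 2 of 6 D cyclins and kinases (Cdk2 and Cdk4), 2 of 5 inhibitors (Cdkn2c and Cdkn2d) and 1 of 3 genes of the retinoblastoma family (Rbl1) were more than 1.5-fold higher in both libraries. The genes of these lists with the most UMIs were not among them. Ccnd2, a D cyclin, had 194 against 360 CPM in the wild-type-labelled library and 204 against 321 in the deficient-labelled one, lower in cells with many members. Ccnd1, its paralog, had 178 against 210 and 149 against 167 CPM. The inhibitor Cdkn1a, p21, had 432 against 546 and 475 against 458, and Cdkn1b, p27, had 63.6 against 96.9 and 81.8 against 75.3. The retinoblastoma gene Rb1 had 25.1 against 24.0 and 19.6 against 19.1 CPM, and its relative Rbl2 had 9.21 against 9.09 and 13 against 8.41. None of the 5 quiescence genes passed 1.5-fold in both libraries. Btg1, an antiproliferative factor, had 1042 against 1700 and 1349 against 1920 CPM, and Btg2 had 232 against 210 and 283 against 269.

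Outside all these lists, the 10 named genes with the highest ratio in the lower of the 2 libraries were Cdca5, Esco2, Iqgap3, Hist1h2ab, Cit, Hmmr, Kif15, Shcbp1, Aspm and Brca1. Hist1h2ab is of the same histone family as the counted Hist1h2ae and Hist1h2ap. Reads are uncertain between such copies, so its ratio may not be independent of the choice of cells. Kif15, a spindle motor, had 83.6 against 3.16 and 73.7 against 6.04 CPM. Brca1, of DNA repair, had 25.5 against 2.02 and 28.7 against 2.58 CPM. Cit, the citron kinase of cytokinesis, had 56.2 against 4.48 and 55.9 against 4.50 CPM, and Cdca5, the cohesin protector sororin, had 46.9 against 0.997 and 31.9 against 2.20.

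Markers of dendritic cells were also set side by side, although the classes were gated on them. The cDC1 factor Irf8 in cDC1-like cells had 891 CPM in cells with many members against 741 in the rest, and 735 against 530 in the deficient-labelled library. Xcr1, the cDC1 chemokine receptor, had 80.9 against 138 and 74.6 against 149 CPM. In cDC2-like cells the lymph node homing receptor Ccr7 had 328 against 556 and 398 against 723 CPM. Averaged over both classes, Ccl22, a chemokine of mature dendritic cells, had 64.4 against 131 and 118 against 244 CPM. Xcr1, Ccr7 and Ccl22, each in the cells named, were thus lower in cells with many members in both libraries, and Irf8 was higher. These markers were chosen after their values were seen. The other markers of their lists are not given, so no trend of the lists is read.

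Within the cells with many members the balance of replication and mitotic genes varied widely. The mitotic share was taken as UMIs of the 22 mitotic genes other than Tubb5 and Stmn1 over UMIs of these and the 13 genes of the helicase, clamp and E cyclin roles. Its median was 60.1% and 61.8% in cDC1-like cells and 63.2% and 70.6% in cDC2-like cells. It ranged from 9.30% to 100% and from 13.5% to 100% in cDC1-like cells, and from 18.9% to 95.2% and from 7.69% to 97.2% in cDC2-like cells. The ranges of the libraries overlap almost wholly. Histone UMIs, which the share did not use, were highest in cDC1-like cells of intermediate share (25% to 75%), at 1356 and 1035 CPM. They were 333 and 316 CPM above 75%, and 0 and 113 below 25%, where there were only 3 and 9 cells. In cDC2-like cells this order held in the deficient-labelled library, with 52.4, 823 and 468 CPM from low to high share, from 4, 46 and 33 cells. It did not hold in the wild-type-labelled one, with 18.9, 534 and 797 CPM from only 2, 22 and 10 cells.

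**Figure D4:**
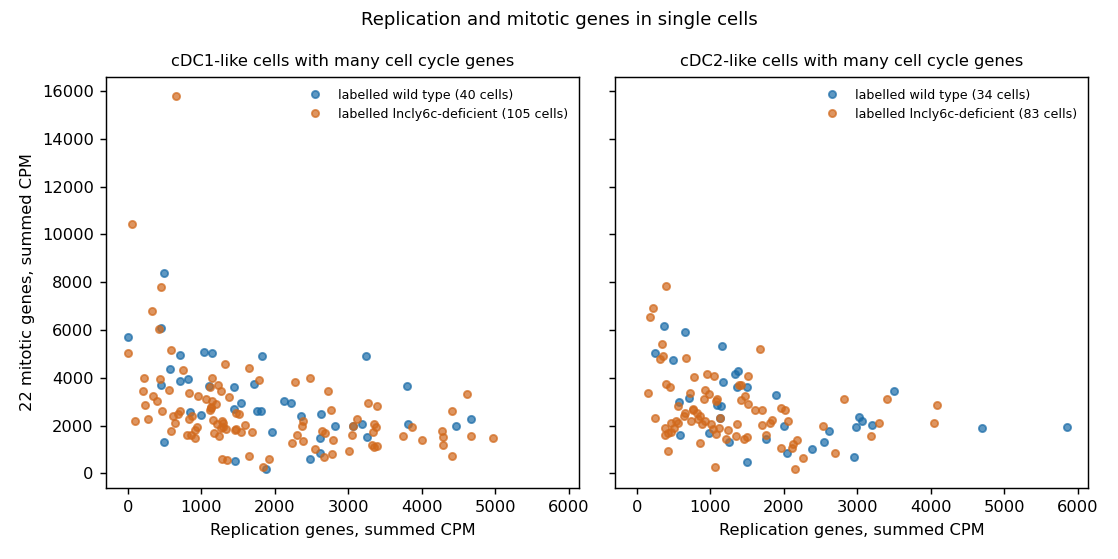
Each point is a dendritic cell with many members, placed by its summed CPM of the 13 replication genes (horizontal axis) and of the 22 mitotic genes (vertical axis), in cDC1-like and cDC2-like cells of the 2 libraries. Cells spread between both axes, with median mitotic shares of 60.1% to 70.6%.

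The summed level of the 40 genes also varied from cell to cell. In cDC1-like cells with many members the lowest, median and highest cells had 2403, 8284 and 13486 CPM in the wild-type-labelled library and 2707, 7227 and 18650 in the deficient-labelled one. In cDC2-like cells these were 2550, 7255 and 12081 CPM, and 2001, 6624 and 12040. The E cyclins were without a UMI in 25 of 40 and 68 of 105 such cDC1-like cells and in 26 of 34 and 70 of 83 such cDC2-like cells.

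Between the libraries, the summed level over all kept cells was 1608 CPM for the wild-type label and 1401 for the deficient label, a log2 ratio of deficient to wild type of -0.20 (-0.22 to -0.18). Of the 40 genes, 0 were more than 1.5-fold higher, where 13% of all 13133 measured genes were, and 1 was more than 1.5-fold lower, where 5.04% of all genes were. That gene was Mcm4, with 18.9 and 12.4 CPM (log2 ratio -0.61, -0.79 to -0.43). The median log2 ratio of the 40 genes was -0.20, against 0.07 for all genes. The sum mixes classes in unequal numbers. Its log2 ratio was -0.04 as a mean over cells and -0.33 with classes weighted equally.

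In cDC1-like cells the levels were mostly lower in the library labelled deficient. The summed log2 ratio was -0.49 (-0.52 to -0.45), 38 of 40 genes lay below 0, and their median was -0.51 against -0.02 for all 8689 measured genes. No gene was more than 1.5-fold higher (6.13% of all genes), and 14 genes, 35.0% of the 40, were more than 1.5-fold lower (6.47% of all genes). These 14 were Top2a, Cenpf, Birc5, Ccnb1, Ccna2, Cdk1, Aurka, Plk1, Bub1, Bub1b, Nusap1, Mcm4, Hist1h2ae and Hist1h1b. Hist1h2ae had 168 and 78.6 CPM (log2 ratio -1.09, -1.26 to -0.92), and Hist1h1b, a linker histone, 77.4 and 39.2 (-0.98, -1.22 to -0.73). Cenpf had 68.8 and 38.2 CPM (-0.85, -1.10 to -0.59) and Nusap1, a spindle-associated protein, 52.8 and 29.4 (-0.85, -1.14 to -0.55). Cdk1, the mitotic kinase, had 41.6 and 26.1 CPM (-0.67) and Ccna2, cyclin A, 35.1 and 23.2 (-0.60). In contrast, Cenpa had 97.8 and 96.5 CPM (-0.02, -0.21 to 0.18), Ube2c -0.13 (-0.30 to 0.06) and Ccne1 0.08 (-0.68 to 0.90), with intervals that include 0.

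Levels were also taken apart by the number of genes per cell. That split uses these same genes and so bears on the levels on each side of it, and the values are a description. Among the 40 and 105 cDC1-like cells with many members the sum was 8319 and 7267 CPM, a log2 ratio of -0.20 (-0.23 to -0.16). Among the 101 and 408 other thinned cells it was 1176 and 1240 CPM, a ratio of 0.08 (0.01 to 0.15). Histones had 968 and 760 CPM in the former cells and 19.4 and 62.0 in the latter, with log2 ratios of -0.35 and 1.67.

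In cDC2-like cells the summed log2 ratio was 0.01 (-0.02 to 0.04), with single genes on both sides of 0. Of 36 measured genes, 5 were more than 1.5-fold higher in the deficient-labelled library (5.74% of all 9229 measured genes), namely Ccnb2, Cdc20, Rrm2, Hist1h2ap and Cdca8. Another 4 were more than 1.5-fold lower (4.78% of all genes), namely Ccnb1, Mcm2, Mcm4 and Mcm5. Hist1h2ap had 31.1 and 56.9 CPM (0.87, 0.64 to 1.11), Ccnb2 14.4 and 24.3 (0.75, 0.40 to 1.11) and Cdca8 13.2 and 22.3 (0.76, 0.39 to 1.14). Mcm4 had 27.3 and 13.8 CPM (-0.99, -1.32 to -0.66) and Mcm5 36.8 and 24.0 (-0.62, -0.88 to -0.35). The median over the 36 genes was 0.16, against 0.01 for all genes. Plk1, Kif20a, Ccne1 and Ccne2 had under 50 UMIs over both libraries and were not measured.

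Of the 8 roles, the helicase, the clamp with nucleotide supply, and chromatin had ratios below 0 in both dendritic classes, with intervals that leave out 0. The 6 helicase subunits summed to 343 and 247 CPM in cDC1-like cells (-0.48, -0.58 to -0.37) and to 182 and 123 in cDC2-like cells (-0.57, -0.68 to -0.45). Split by the number of genes per cell, again as a description since the 6 subunits are in the count, cDC2-like cells with many members had 567 and 350 CPM (-0.70, -0.88 to -0.51), and in the others 129 and 84.1 (-0.62, -0.77 to -0.47), with 6 of 6 subunits below 0 in each. In cDC1-like cells with many members the sum was 529 and 539 CPM (0.03, -0.11 to 0.17), and in the others 229 and 145 (-0.65), again with 6 of 6 below 0. Clamp and nucleotide genes had a class ratio of -0.51 in cDC1-like cells (632 and 442 CPM) and -0.19 in cDC2-like cells (326 and 286 CPM), with Pcna at -0.56 and -0.45 and Rrm1, of ribonucleotide reductase, at -0.34 and -0.52. Pclaf, in contrast, was at -0.53 and 0.15, and the thymidylate synthase Tyms at -0.50 and 0.32. Rrm2 was more than 1.5-fold higher in cDC2-like cells. Of the 2 chromatin genes in cDC2-like cells, Mki67 was lower, with 293 and 229 CPM, and Top2a was higher, with 73.3 and 85.4.

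**Figure D5:**
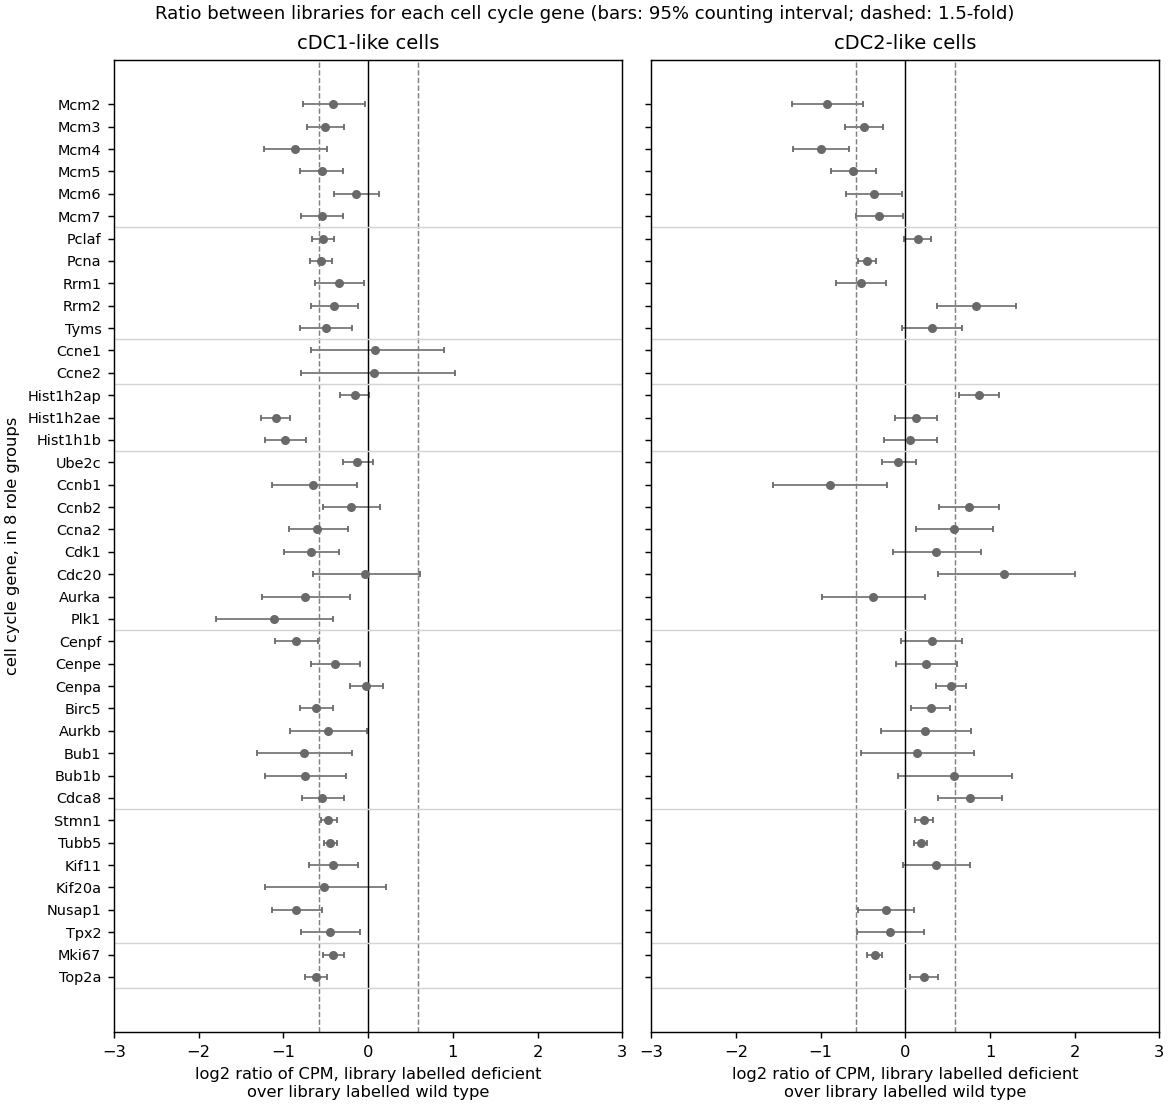
Log2 ratio of CPM (deficient label divided by wild-type label) for each of the 40 genes in cDC1-like and cDC2-like cells, grouped by role, with 95% counting intervals. In cDC1-like cells 38 of 40 genes lie below 0, and in cDC2-like cells the helicase genes lie below 0 while Hist1h2ap, Ccnb2 and Cdca8 lie above.

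Macrophage-like cells included 6 and 9 cells with many members, which gave 32.3% and 14.1% of the summed UMIs of the class. Of 23 measured genes, 11 were more than 1.5-fold lower in the deficient-labelled library (6.37% of all genes), among them Top2a, Pclaf, Pcna and Hist1h2ap, and 1, Cenpa, was higher (8.85%). The median was -0.57, against 0.02 for all genes. The sum was 1236 and 819 CPM with these cells and 888 and 722 CPM without them. In Ly6C-high monocyte-like cells 11 genes were measured, of which Cenpa and Mcm3 were more than 1.5-fold higher (7.27% of all genes) and 0 lower (6.33%), with a median of 0.11 against 0.01. Only Mki67, Tubb5 and Pcna had enough UMIs in neutrophil-like cells, and no count was made there.

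Of the other cell cycle genes 88 were measured in cDC1-like cells. Among them, 0 were more than 1.5-fold higher (6.13% of all genes) and 17 were lower (6.47% of all genes), with a median of -0.30. These included 4 of 10 DNA synthesis genes, Tk1, Hells, Uhrf1 and Rfc4, which make thymidine nucleotides, remodel or mark replicating chromatin and load the clamp. In cDC2-like cells 3 of 80 were higher (5.74% of all genes), Lin9, Cdc45 and Ndc80. There 1, Hells, was lower (4.78% of all genes), and the median was -0.07. Neither count in cDC2-like cells exceeded its share of all genes.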

How the data were processed

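The deposited files hold raw UMI counts for each gene and cell barcode. The submitters' processing notes name Cell Ranger, the aligner STAR 2.5.1b and the build mm10, and the header of each matrix gives 3.0.2 as its software version. A barcode was kept if it had 200 genes and 500 UMIs or more, with no more than 20% of its UMIs mitochondrial. Scrublet (scanpy 1.11.5, expected rate 5%) called 4 and 2 doublets, 0.0706% of barcodes, which is too few to have worked. The removal of the highest scores, 0.8% of cells per 1000 cells, was therefore tried as an alternative.

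Cells were scored against 22 marker lists by the mean of log(1 + UMIs per 10000), each gene scaled to its 99.5th percentile and capped. A cell took the best list at a score of at least 0.15, a margin of at least 0.05 and at least 2 markers detected. The markers were set from the labels' tissue, the scoring rule after the data were seen. Of the 7201 thinned cells, 924 lay near the gate, and 620 and 673 kept cells were too shallow to thin. Shares have exact Clopper-Pearson intervals, levels exact Poisson intervals and ratios exact conditional binomial intervals. A gene was measured with at least 50 UMIs over both libraries, and classes were compared with at least 100 cells in each. A count of 0 allows up to 3 counts.

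The 40 genes and the lists were chosen with earlier results of these data known. Named were up to 4 genes per role with the most UMIs, every gene past 1.5-fold over all cells, up to 2 genes per other list, and 10 genes outside the lists by their ratio in cells with many members. Other genes are named where they make up a count, and the dendritic cell markers were chosen after their values were seen. Alternatives covered the number of genes, thinning, gate, doublets, cell filter, scaling, class mix, genes summed, minimum UMIs and fold. Ratios were tested on simulated counts. Python 3.11.15, numpy 2.4.6, scipy 1.17.1 and pandas 2.3.3 were used. Overlap of a gene with others of either strand concerns 19 of the 40 genes, since 21 overlap none.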

Additional observations from a re-analysis of the deposited data

Results flagged for a closer look

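For 4 roles the log2 ratio of deficient-labelled to wild-type-labelled CPM had opposite signs in cDC1-like and cDC2-like cells, with counting intervals on opposite sides of 0. Histones stood at -0.66 in cDC1-like and 0.44 in cDC2-like cells. Mitotic cyclins, kinases and the ubiquitin ligase stood at -0.35 and 0.18, in this order. Centromere, passenger complex and checkpoint genes stood at -0.46 and 0.43, and spindle genes at -0.47 and 0.18. These intervals count UMIs and leave out the spread between cells. In cDC2-like cells the spindle sum was mostly Tubb5 (295 and 335 CPM) and Stmn1 (163 and 190), which resting cells also hold. Nusap1 (21.1 and 17.9) and Tpx2 (14.6 and 12.9) were lower, and Kif11 (12.6 and 16.2) higher. Of the histones, Hist1h2ap had 31.1 and 56.9 CPM, Hist1h2ae 32.6 and 35.6, and Hist1h1b 20.8 and 21.8. Among such cells with many members 5 of 6 spindle genes and 2 of 3 histones lay below 0. Among the rest 0 of 6 and 1 of 3 did. Cells with many members gave 81.4% and 67.1% of the summed UMIs of the 40 genes in cDC1-like cells, and 51.0% and 55.3% in cDC2-like cells. With 1 library per genotype the difference between the classes was not tested.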

How the results depend on the processing

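cDC1-like cells ranked first and cDC2-like cells second among the 5 classes that both libraries held at 100 cells or more, in both libraries and in 11 of 11 settings for cells with many members, the reported one included. The shares themselves moved. In the order cDC1-like wild type, cDC1-like deficient, cDC2-like wild type, cDC2-like deficient, they were 39.7%, 29.4%, 15.1% and 18.8% at 3 genes or more, 18.4%, 9.16%, 3.29% and 4.21% at 8 or more, 17.4%, 9.98%, 4.17% and 3.80% with 1000 UMIs per cell, and 58.9%, 47.2%, 32.1% and 27.2% without thinning. The order of the libraries in cDC2-like cells turned in the last 2 settings. The deficient-labelled share was 17% in cDC1-like cells with at least 3 mitotic genes only, 7.88% in cDC2-like cells with a stricter gate, and 16.6% and 8.05% without Mki67, Pcna and Cenpa, a setting chosen after seeing the data. The part of cells with many members that was cDC1-like or cDC2-like was 52.8% at 3 genes, 52.6% without thinning, 66.3% with mitotic genes only and 54.2% with the stricter gate.

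The summed log2 ratio over all cells was -0.24 without Tubb5 and Stmn1, -0.27 with median-of-ratios scaling, -0.17 without the highest doublet scores, -0.15 without Mki67, Pcna and Cenpa, -0.04 as a mean over cells and -0.33 with classes weighted equally. In cDC1-like cells it was -0.45 as a mean over cells. In cDC2-like cells it was -0.06 without Tubb5 and Stmn1 and 0.12 without Mki67, Pcna and Cenpa. Genes lower in cDC1-like cells numbered 9 with at least 200 UMIs and 2 at 2-fold. In cDC2-like cells 2 were lower with at least 200 UMIs, and 1 was higher and 0 lower at 2-fold. The shares of all genes past these limits are not set beside these counts, so no excess over all genes is read from them. Other than by fewer genes or cells entering, the cause was not tested. No paired analysis was possible because each group is 1 library. Few UMIs limit the E cyclins, and few cells the smaller classes.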

Other observations

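Among the barcodes removed by the filters, 59 and 32 had enough UMIs to thin, and 3 of 59 (5.08%, 1.06 to 14.1) and 3 of 32 (9.38%, 1.98 to 25) held many members. None of these 6 held 2 epithelial markers, which 7 and 4 of the removed barcodes did.

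Within cDC2-like cells, those with more of Cd209a, Clec10a and Mgl2 than of Ffar2, Plet1 and Clec4a4 held many members in 27 of 363 (7.44%, 4.96 to 10.6) and 71 of 721 (9.85%, 7.77 to 12.3). Those with more of the latter 3 genes did so in 1 of 28 (3.57%, 0.0904 to 18.3) and 0 of 34 (0 to 10.3%). In each library this interval overlaps that of the former cells, so no difference between the 2 sets is read. Cells in which both scores were equal did so in 6 of 34 (17.6%, 6.76 to 34.5) and 12 of 52 (23.1%, 12.5 to 36.8).

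Genes lower in dendritic cells with many members in both libraries, named after their values were seen, included the interferon-induced chemokine Cxcl9, with 15.9 against 185 CPM in the wild-type-labelled library and 18.9 against 68.0 in the deficient-labelled one. Slfn5 had 5.29 against 73.3 and 6.16 against 30.4 CPM, and Apol7c 7.23 against 68.4 and 17.8 against 95.3. Procr, the endothelial protein C receptor, had 23.5 against 76.8 and 27.8 against 121 CPM.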
